A study of Bombus terrestris with 8 samples.

Results

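The miRNAs bte-mir-12 and bte-mir-3477 of the bumblebee Bombus terrestris are neighbours on the minus strand of scaffold Group2.1. The members were taken by name and position and not by their counts, and they are 2 of the 65 entries in the deposited list of sequenced miRNAs. Small RNA was sequenced from whole bodies of worker-destined, diploid female larvae from 4 colonies, with larvae of one colony and one stage pooled before extraction. Early larvae (the first and the second instar) and late larvae (the fourth instar) each gave 4 libraries, and the sample descriptions give no treatment or genotype. The pools hold whole larvae, so fewer cells that make a miRNA and less of it per cell cannot be told apart, and the colony behind a replicate number was not used here.

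miRNAs are cut from hairpins within longer primary transcripts, and the mature strand is loaded into an Argonaute protein, which it guides to target mRNAs through its seed (bases 2 to 8). Hairpins that lie close together on one strand are often parts of a single primary transcript. That transcript supplies its hairpins in equal numbers, and the mature levels then also depend on how well each hairpin is cut, how its strand is loaded and how fast it decays. In Drosophila mir-12 is clustered with mir-283 and mir-304, and in the mosquito Aedes aegypti mir-12 is known from its targets in cells that carry Wolbachia.

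The sequences are shown because they set the members apart from each other and from the rest of the list. Each mature sequence is given as in the deposited table, 5′ to 3′, with its seed in capitals.
bte-mir-12: tGAGTATTacatcaggtactggt
bte-mir-3477: tAATCTCAtgcggtaactgtga
The seeds matched at 1 of 7 positions, the longest run of bases that both mature sequences share was 4, and no other listed miRNA had either seed. Neither mature sequence occurred in the precursor of another entry. The closest listed mature sequence matched at 11 of 23 bases for bte-mir-12 and at 12 of 22 bases for bte-mir-3477 without gaps. Both begin with T (U in the RNA), as miRNAs most often do.

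The precursors, again from the deposited table, are printed with the mature sequence in capitals, to show on which arm it lies.
bte-mir-3477: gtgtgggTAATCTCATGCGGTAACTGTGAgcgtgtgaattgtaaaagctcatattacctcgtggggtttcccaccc
bte-mir-12: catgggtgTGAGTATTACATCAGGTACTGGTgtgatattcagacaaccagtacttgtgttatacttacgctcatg
On the assembly Bter_1.0, bte-mir-3477 occupies Group2.1:722266-722341 and bte-mir-12 occupies Group2.1:721810-721884, both on the minus strand. The order of transcription is therefore bte-mir-3477 first, and 381 bases separate the hairpins. No other listed miRNA lay on this scaffold. Whether a gene holds the cluster in an intron was not analysed here. Both mature sequences lie on the 5p arm, from base 9 to 31 of the 75-base precursor of bte-mir-12 and from base 8 to 29 of the 76-base precursor of bte-mir-3477. Folded with RNAfold, the hairpins had a minimum free energy of −40.8 kcal/mol for bte-mir-12 and −35.6 kcal/mol for bte-mir-3477, with 21 of 23 and 19 of 22 mature bases paired. Both had been predicted with miRCat, which selects for such hairpins. The table counts 1 mature sequence for each of these hairpins, so the opposite arms were not analysed here.

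Reads on all listed miRNAs numbered 204223 to 502540 in early libraries and 45649 to 257161 in late libraries. A count of 0 would have left room for 5.97 to 65.7 CPM (3 counts, as a rate per 1000000 listed reads). Both members were far above this limit in every library. bte-mir-1, a muscle miRNA in insects, was counted in all 8 libraries, 15773 to 203799 times, and the neuronal bte-mir-124 had 1 to 35 reads. Late replicate 1 bears on most of what follows, and the main results are given with and without it.

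Both members were among the more abundant miRNAs of the larvae. bte-mir-12 had 13839 reads in all and ranked 12 of 63 distinct sequences, and bte-mir-3477 had 8221 reads and ranked 14. The median sequence of the list had 473 reads. Together the pair held 1.07% of the listed reads. A miRNA read covers a whole mature sequence, so the counts of both members were set side by side without a correction for length. Ligation can still favour 1 sequence over another. If that bias was the same in every library, it would move a ratio of 2 miRNAs by the same factor in all. Whether it was the same was not measured.

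bte-mir-12 was counted 2895, 2880, 1044 and 1030 times in early replicates 1 to 4 and 4049, 1285, 406 and 250 times in late replicates 1 to 4. After TMM normalization, which rescales each library by a trimmed mean over the list, these were 4959, 5005, 4578 and 4035 CPM in early larvae and 17978, 10482, 3716 and 4909 CPM in late larvae. On this scaling the early libraries lay close together, with a range of 1.24-fold. As a share of the listed reads their range was 1.53-fold. The late libraries spread over 4.84-fold, with late replicates 1 and 2 above every early library, late replicate 3 below all of them and late replicate 4 among them.

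bte-mir-3477 was counted 1986, 1708, 775 and 1221 times in early larvae and 997, 920, 458 and 156 times in late larvae, in the same order. Its normalized counts were 3402, 2968, 3399 and 4784 CPM in early replicates 1 to 4. In late replicates 1 to 4 they were 4427, 7505, 4192 and 3063 CPM. The stages overlapped, and the highest library was late replicate 2, not late replicate 1. The whole range over 8 libraries was 2.53-fold for bte-mir-3477 and 4.84-fold for bte-mir-12.

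**Figure D1:**
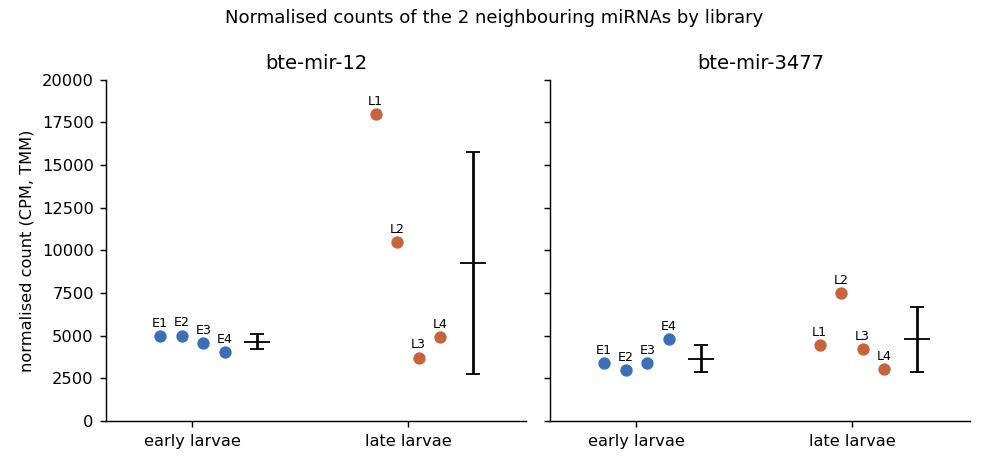
Normalised counts (CPM after TMM) of bte-mir-12 and bte-mir-3477 in the 4 early (E1 to E4) and 4 late (L1 to L4) libraries, with the mean and SD (n = 4) of each stage in black. Late replicate 1 stood at 17978 CPM for bte-mir-12 but at 4427 CPM for bte-mir-3477, within the range of the other late libraries.

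The first comparison asks whether either member changed between early and late larvae. bte-mir-12 averaged 4645 ± 449 CPM in early and 9271 ± 6511 CPM in late larvae (SD, n = 4 each). Its log2 fold change was 1.00 (standard error 0.39), and the quasi-likelihood test of edgeR over all 62 miRNAs tested gave an unadjusted p = 0.0224 and an adjusted p = 0.0637. bte-mir-3477 averaged 3638 ± 790 CPM in early and 4797 ± 1901 CPM in late larvae (SD, n = 4 each). Its log2 fold change was 0.40 (standard error 0.30, edgeR adjusted p = 0.297). Neither member passed 0.05 after adjustment, where 32.3% of the tested miRNAs did, 19.4% higher and 12.9% lower in late larvae. bte-mir-12 was the next after those 20 by p, at place 21, and bte-mir-3477 was at place 42. Of the 16 pairs of an early and a late library, the late one was higher in CPM after TMM in 10 for bte-mir-12 and in 11 for bte-mir-3477. This depends on the scaling. As a share of the listed reads, the median of bte-mir-3477 was 0.387% in early and 0.373% in late larvae. For bte-mir-12 these medians were 0.542% and 0.727%.

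The fitted difference in bte-mir-12 depended on late replicate 1. Without it, and with TMM scaling estimated anew, the log2 fold change of bte-mir-12 was −0.082 (standard error 0.31, edgeR adjusted p = 0.843). That of bte-mir-3477 was −0.11 (standard error 0.31, edgeR adjusted p = 0.802). On the scaling of all libraries, the other late libraries averaged 6369 ± 3611 CPM for bte-mir-12 and 4920 ± 2308 CPM for bte-mir-3477 (SD, n = 3). These means lay above the early means of 4645 and 3638 CPM. The median log2 fold change over the list went from 0.18 with all libraries to −0.51 without late replicate 1. It was −0.26 without early replicate 2. Whether such shifts come from the scaling or from the larvae was not tested. Relative to the median of the same fit, bte-mir-12 stood at 0.82 with all libraries and at 0.43 without late replicate 1, and bte-mir-3477 stood at 0.22 and 0.40. The share of miRNAs called without that library was 46.8%, with 9 higher and 20 lower in late larvae, against 12 higher and 8 lower with all libraries. Without early replicate 2 there were 5 higher and 11 lower. In the opposite direction, bte-mir-12 passed 0.05 without late replicate 3 (log2 fold change 1.26, edgeR adjusted p = 0.00784) and without late replicate 4 (1.21, edgeR adjusted p = 0.0412). These are 2 of its 14 alternative fits, whose adjusted p ran from 0.00784 to 0.843. Scaled by the listed total instead, bte-mir-12 was at 0.72 and bte-mir-3477 at 0.16, or 0.81 and 0.24 relative to the median. bte-mir-3477 passed in none of its 14, with edgeR or DESeq2 adjusted p from 0.105 to 0.948. Both members stood above the median of the list in all 14 alternatives, which share most of their libraries and are not separate evidence. The smallest margin was 0.43 for bte-mir-12 (without late replicate 1) but 0.03 for bte-mir-3477 (without late replicate 2).

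**Figure D2:**
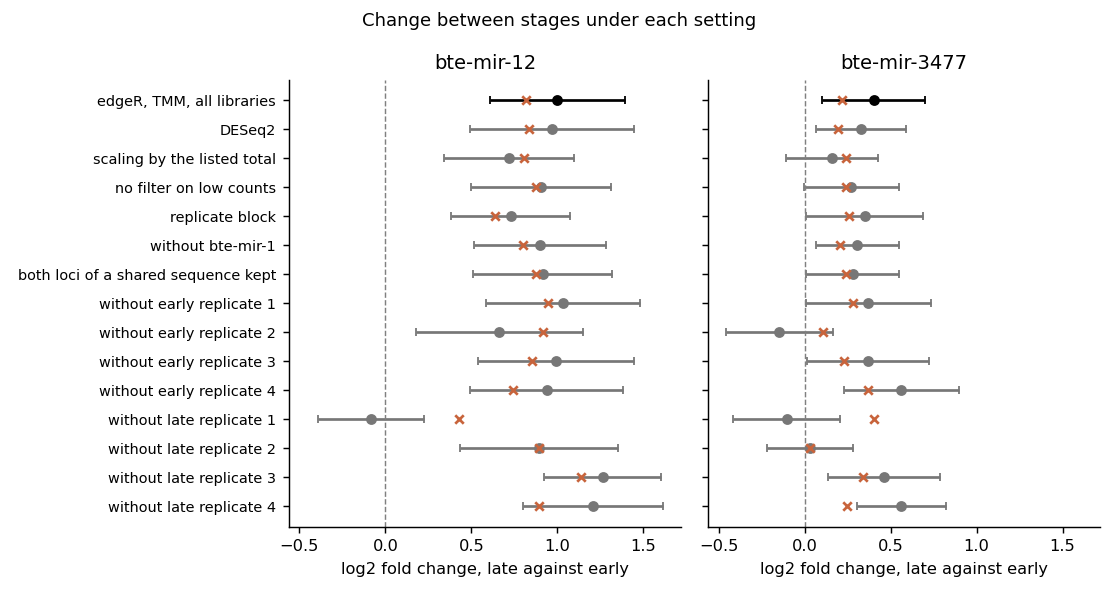
Log2 fold change of late against early larvae for each member in the fit with all libraries (black) and in each alternative (grey), with bars of 1 standard error, and the same value relative to the median of the list in that fit (crosses). bte-mir-12 dropped from 1.00 to −0.082 without late replicate 1, and its cross from 0.82 to 0.43.

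The ratio of the members within a library needs no scaling between libraries. A ratio above 1 means more reads of bte-mir-12, and intervals are 95% Clopper-Pearson intervals of the share of bte-mir-12 in the reads of the pair, turned into ratios, which cover counting error only. In early replicates 1 to 3 the ratio was 1.46 (1.38 to 1.54), 1.69 (1.59 to 1.79) and 1.35 (1.23 to 1.48). In early replicate 4 it was 0.844 (0.776 to 0.917), so here bte-mir-3477 was the more frequent read. Late replicate 1 had the highest ratio of all, 4.06 (3.79 to 4.36). Late replicates 2 and 4 had 1.40 (1.28 to 1.52) and 1.60 (1.31 to 1.97), within the range of the early libraries. Late replicate 3 had 0.886 (0.774 to 1.02), an interval that includes 1.

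bte-mir-12 thus had more reads than its neighbour in 6 of 8 libraries, 3 of each stage. The ratio was under 1 in a library of each stage. Early replicate 4 had the highest early level of bte-mir-3477 and the lowest early level of bte-mir-12, and late replicate 3 had the lowest level of bte-mir-12 of all libraries.

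**Figure D3:**
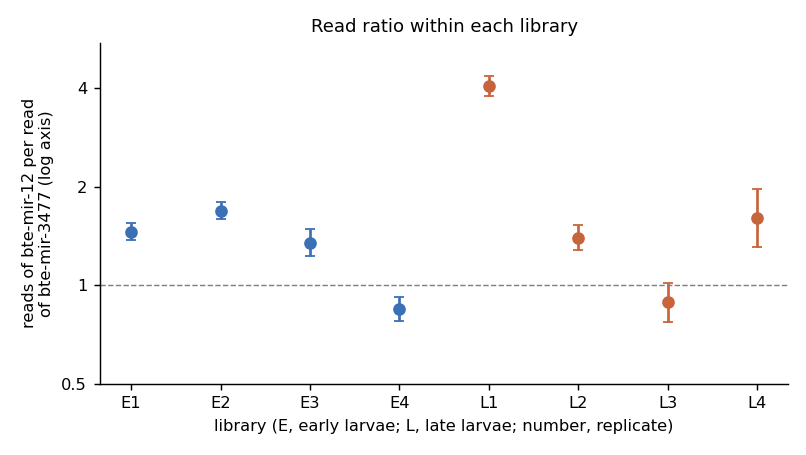
Reads of bte-mir-12 per read of bte-mir-3477 in each library, on a log axis, with 95% Clopper-Pearson intervals and a dashed line at equal reads. Late replicate 1 lay at 4.06 and the other 7 libraries between 0.844 and 1.69.

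The mean log2 ratio was 0.37 ± 0.43 in early and 0.75 ± 0.92 in late larvae (SD, n = 4 each). The difference of 0.38 did not pass 0.05 (two-sided exact permutation test, p = 0.543), where the smallest p that 4 against 4 libraries allow is 0.0286. This is also the test of whether the members changed differently between the stages. Without late replicate 1 the mean in late larvae was 0.33 ± 0.45 (SD, n = 3) and the difference was −0.041 (two-sided exact permutation test, p = 0.83). Summed over the libraries of a stage, which weights deep libraries more, the ratio was 1.38 in early larvae and 2.37 in late larvae, and 1.27 in late larvae without replicate 1.

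The second comparison asks whether the members rose and fell together across libraries, as the hairpins of one transcript would if each were cut and lost at the same rate in every larva. In that case the ratio would vary by counting error and by the error of library preparation, which was not measured. The log2 ratio had a within-stage SD of 0.72, against a counting error of 0.042 to 0.15 in single libraries (root mean square 0.079). Without late replicate 1 the within-stage SD was 0.44, and the SD over those 7 libraries without regard to stage was 0.40. Both are also above the counting error of every library. The ratio thus varied by more than counting error, with and without that library.

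The correlation of the log2 CPM values over the 8 libraries did not pass 0.05. Pearson's r was 0.47 (two-sided exact permutation test, p = 0.250) and Spearman's rho was 0.095 (two-sided exact permutation test, p = 0.840). With the mean of each stage taken away, r was 0.34 (two-sided exact permutation within stages, p = 0.696) and rho, an alternative, was 0.50 (two-sided exact permutation within stages, p = 0.354). With scaling by the listed total Pearson's r was 0.30 (exact permutation test, p = 0.414). After Benjamini-Hochberg adjustment over 3 relations the p-values (exact permutation) were 0.751 for Pearson's r, 0.840 for rho and 0.840 for the stage-centred r. Each stage alone has too few libraries for a correlation of its own. Among the alternatives, r turned negative only where late replicates 1 and 2, the farthest from the median of bte-mir-12, were both left out. Without both of them r was −0.88 (two-sided exact permutation test, n = 6 libraries, p = 0.0361), a value from one of several alternatives and not adjusted over them. Over those 6 libraries bte-mir-12 spanned 3716 to 5005 CPM and bte-mir-3477 2968 to 4784 CPM. Without late replicate 1 alone r was 0.65 (two-sided exact permutation test, n = 7, p = 0.139) and the stage-centred r was 0.60 (exact permutation, p = 0.493). Leaving out late replicate 2 alone lowered r to 0.25 (two-sided exact permutation test, n = 7, p = 0.734).

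To show what such values are worth in these libraries, the same measures were taken for all pairs of listed miRNAs. They are descriptions, since the pairs share libraries, scaling factors and members. Over all 1891 pairs of tested miRNAs the median stage-centred r was 0.16, and 39.3% of the pairs had a higher r than bte-mir-12 and bte-mir-3477. The median within-stage SD of the log2 ratio was 0.94 over these pairs, many of them with few reads, and 32.6% had a steadier ratio than the 0.72 of the neighbours. Among the 435 pairs in which both miRNAs had at least 1000 reads, the median stage-centred r was 0.28 with 45.7% of the pairs higher, and the median SD was 0.51 with 72.6% of the pairs steadier. The place of the neighbours thus depended on which pairs they were set beside. Without late replicate 1 their stage-centred r of 0.60 was exceeded by 24.1% of all pairs and 32.2% of the abundant pairs. Their SD was then 0.44, with 14.3% of all pairs and 44.1% of the abundant pairs steadier.

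The list held 6 other pairs of entries within 1 kb on the same strand, and these did not behave as one kind. The stage-centred r was above 0 in 4 of the 6, where the median over all tested pairs was 0.16. It ran from −0.89 (bte-let-7 with bte-mir-125) to 0.59 (bte-mir-2944 with bte-mir-279b). bte-mir-2-1 and bte-mir-13b, 184 bases apart, had a Pearson's r of 0.92, a stage-centred r of 0.39 and, over the 8 libraries, the steadiest ratio of all neighbours (SD 0.41 on the log2 scale within stages). bte-mir-996 and bte-mir-279a, 124 bases apart, had a Pearson's r of −0.81, a stage-centred r of −0.74 and an SD of 1.06. Over the 8 libraries the 0.34 and 0.72 of bte-mir-12 and bte-mir-3477 lay between these. Without late replicate 1 they did not, as bte-mir-12 and bte-mir-3477 had a stage-centred r of 0.60 and an SD of 0.44, against 0.32 and 0.45 for bte-mir-2-1 and bte-mir-13b and −0.77 and 1.06 for bte-mir-996 and bte-mir-279a. In the other pairs at least 1 entry had few reads over all libraries: bte-let-7 with bte-mir-125 (177 reads) or with MC1211 (179 reads) on the opposite arm of the bte-mir-125 hairpin, bte-mir-2944 (125 reads) with bte-mir-279b (63 reads), and bte-mir-277 with bte-mir-3730 (150 reads).

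The miRNA most like bte-mir-12 was not its neighbour but bte-mir-11, on another scaffold (Group9.6:700510-700592, plus strand). Its mature sequence, with the seed in capitals, is printed for comparison with that of bte-mir-12.
bte-mir-11: cATCACAGgcagagttctagtt
It matched bte-mir-12 at 8 of 23 bases without gaps. In Drosophila mir-11 lies in an intron of a gene for a cell cycle transcription factor and limits the cell death that this factor can trigger. bte-mir-11 was counted 785, 851, 289 and 279 times in early larvae and 3134, 658, 153 and 71 times in late larvae. This came to 1345, 1479, 1267 and 1093 CPM in early replicates 1 to 4 and 13916, 5367, 1400 and 1394 CPM in late replicates 1 to 4. Late replicates 1 and 2 again stood above all other libraries.

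Pearson's r between bte-mir-12 and bte-mir-11 over the 8 libraries was 0.98, the highest of all 1891 pairs of tested miRNAs. bte-mir-11 was picked by this value, which is therefore a description with no test. It was 0.99 with the stage means taken away, 0.96 with scaling by the listed total and 0.97 with the size factors of DESeq2. It was 0.95 without late replicate 1, but 0.41 without late replicates 1 and 2, so the likeness rests mainly on these libraries. bte-mir-11 spanned 12.7-fold where bte-mir-12 spanned 4.84-fold. The reads of bte-mir-12 per read of bte-mir-11 were 3.69, 3.38, 3.61 and 3.69 in early replicates 1 to 4, a narrow range, and 1.29, 1.95, 2.65 and 3.52 in late replicates 1 to 4. The log2 fold change of bte-mir-11 between stages was 2.10 (standard error 0.58, edgeR adjusted p = 0.0129), and without late replicate 1 it was 0.45 (edgeR adjusted p = 0.350).

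**Figure D4:**
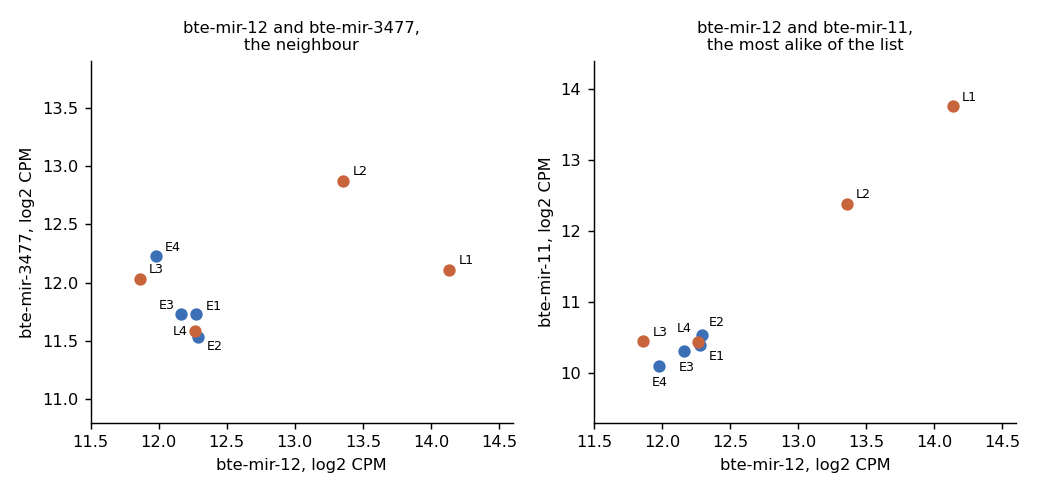
Log2 CPM of bte-mir-12 in the 8 libraries (early E1 to E4 in blue, late L1 to L4 in orange) against its neighbour bte-mir-3477 (left) and against bte-mir-11 (right). Late replicate 1 was high in bte-mir-12 and bte-mir-11 (17978 and 13916 CPM) but not in bte-mir-3477 (4427 CPM), while late replicate 2 was high in all 3.

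In late replicate 1 bte-mir-12 was 1.64 above the mean of the other late libraries on the log2 scale, at place 7 of 62, and bte-mir-3477 was −0.05 from it, at place 38. bte-mir-11 was 2.66 above, and the median of the list was 0.22 above. In late replicate 3 bte-mir-12 was at −1.39 from the mean of the other late libraries, at place 56 of 62, and bte-mir-3477 at −0.16. The members thus stood at different places in the list in these libraries. In late replicate 2 both were above that mean, by 0.60 and 0.96, at places 26 and 16 of 62, with a list median of 0.41 there. In late replicate 4 both were below it, at −0.85 and −0.76, with a list median of −0.68. Much of the list thus moved the same way in these libraries.

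After bte-mir-11, the miRNAs most like bte-mir-12 by Pearson's r were MC1211 (0.79, 179 reads) and MC37 (0.72, 68 reads), both with few reads. bte-mir-3477 came at place 13 of 61. The miRNAs most like bte-mir-3477 were bte-mir-750 (r = 0.80, 48936 reads), bte-mir-307 (0.76, 366 reads) and bte-mir-281 (0.75, 93 reads), and bte-mir-12 came at place 18 of 61. Without late replicate 1, a choice made after the data had been seen, each neighbour came closer to the other, at place 6 for bte-mir-3477 and at place 11 for bte-mir-12. In those 7 libraries bte-mir-11, bte-mir-277 and bte-mir-750 were the 3 most like either member, with r of 0.95, 0.87 and 0.80 to bte-mir-12 and of 0.77, 0.76 and 0.81 to bte-mir-3477.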

How the data were processed

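The 3′ adaptor of the libraries was of the HD kind, whose degenerate end lowers ligation bias. The authors mapped all libraries as one to Bter_1.0, predicted precursors with miRCat and deposited raw read counts per listed mature sequence and library, without normalization. Which aligner was used, how many mismatches it allowed, whether end variants were pooled and whether duplicates were removed is not given in the sources used here, and each could change the counts. Stage initials and replicate numbers matched the columns to the libraries.

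An entry with blank cells in 7 libraries was left out, and a mature sequence listed at more than one locus was counted once, which left 63 sequences. Those with at least 10 counts over the libraries (62) entered the quasi-likelihood test of edgeR 4.0.16 (R 4.3.3) after TMM scaling, in a model with stage alone, and p-values were adjusted by the Benjamini-Hochberg method over all 62. Standard errors are approximate, being the size of the log2 fold change over the root of its F statistic. The biological coefficient of variation was 37.4%. Correlations used log2 CPM with 0.5 counts added, and ratios used none. Permutation tests enumerated every arrangement (Python 3.11.15, numpy 2.4.6, pandas 2.3.3, SciPy 1.17.1), and hairpins were folded with RNAfold 2.7.2. The edgeR test, the permutation test of the ratio between stages and the permutation tests of Pearson's r were tried on simulated data. The replicates are separate pools of larvae, and the main tests treated all libraries as independent although they share colonies in pairs.

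The named miRNAs are the members, neighbours within 1 kb on a strand and the 3 with the highest r to each member. The members, lists and tests were chosen with earlier results of these data known. The alternatives were DESeq2 1.42.0, scaling by the listed total, no filter, the replicate number as a block, bte-mir-1 left out, both loci of a shared sequence kept, a pseudocount, summed reads, other scalings and Spearman's rho for the correlations, and each library left out in turn. The comparisons with all or only abundant pairs without late replicate 1 and the other scalings for bte-mir-11 were chosen after seeing the data.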

Additional observations from a re-analysis of the deposited data

How the results depend on the processing

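With each library left out in turn, the log2 fold change ran from −0.082 (without late replicate 1) to 1.26 (without late replicate 3) for bte-mir-12 and from −0.15 (without early replicate 2) to 0.56 for bte-mir-3477, which was −0.11 without late replicate 1. The number of miRNAs called ran from 15 to 29 around 20. The difference in log2 ratio ran from −0.041 to 0.69, Pearson's r of the members from 0.25 to 0.65 and the stage-centred r from 0.12 to 0.60. Without the pair of libraries farthest from the median of bte-mir-12, r was −0.88 and the stage-centred r was −0.92. The cause of these turns was not tested. In the other alternatives each of these results kept its direction and its side of 0.05, and the number of calls stayed within 18 to 25. Scaled by the listed total instead, bte-mir-3477 was at 0.16 in place of 0.40 and Pearson's r was 0.30 in place of 0.47. Calls split into 12 higher and 8 lower, against 12 and 13 with DESeq2, 11 and 14 with scaling by the listed total, and 12 and 11 without a filter, without bte-mir-1 or with both loci kept. The split was 9 and 20 without late replicate 1 and 5 and 11 without early replicate 2. The median log2 fold change was 0.18 with TMM and −0.09 with scaling by the listed total.

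Early and late libraries of one number did not deviate together (r across miRNAs from −0.078 to 0.014), and 0 of 8 libraries correlated best with their own number. With the replicate number as a block the log2 fold change was 0.73 for bte-mir-12 and 0.35 for bte-mir-3477, 18 miRNAs were called, the mean difference in log2 ratio was 0.38 (exact sign-flip permutation, p = 0.5, smallest possible 0.125) and the stage-centred r was 0.38. Late replicate 4, with 406 reads of the pair, gives the least precise ratio.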
